A study of Mus musculus with 14 samples.

Results

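The cells described here were cultured for 24 h with IL-7 and without 4-hydroxytamoxifen (4OHT), and were compared with the same cells at time 0. The members are the 4 arrays labelled in this way, 2 after 24 h and 2 at time 0, of 14 arrays in all, paired by their experiment number. Every gene with a probe set of 1 symbol was read, 19938 genes, through its brightest probe set. The cells are BH1-Bcl2-Ik1ER, a mouse pre-B cell line deficient in the transcription factor Ikaros. The line carries 2 retroviruses, one for Bcl2, which blocks apoptosis, and one for Ikaros joined to an estrogen receptor part, which 4OHT switches on, and the doubly transduced cells had been sorted by flow cytometry. The time 0 group and the 24 h group both hold the Bcl2 virus and the fusion without its drug, and both grew in medium with 10% serum and 8% conditioned medium of a cell line that secretes mouse IL-7. They therefore differ, per the labels, in 24 h of culture. The labels do not say whether the medium was renewed at time 0 or how dense the cultures were. The other groups used beside them were 24 h without conditioned medium and 4OHT, 6 h with 100 nM 4OHT in the presence or absence of IL-7, and 24 h with both IL-7 and 100 nM 4OHT. All arrays come from 1 cell line in 2 independent experiments, and none of the 14 arrays is of cells without the fusion.

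IL-7 is the cytokine on which early B cells depend. Its receptor activates the kinases JAK1 and JAK3 and the transcription factor STAT5, which induces its own feedback inhibitors and genes of proliferation and represses others, among them Bcl6. Signals through the same receptor also raise MYC, a factor that drives ribosome production and nucleotide synthesis, while FoxO factors and the pre-B cell receptor pathway tend to gain ground when IL-7 is limiting. The comparison serves in the series as the control for time in culture.

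After 24 h with IL-7 the feedback inhibitors Cish and Socs2 and cyclin D2 were over 2-fold higher than at time 0. Of ribosome production and nucleotide synthesis 12 of 39 and 7 of 27 genes rose, by smaller steps. A group of neighbouring guanylate-binding protein genes, Bcl6 and most enzymes of cholesterol synthesis were lower. By limma, with a mean per group and without the pairing, 617 of the 19938 genes differed at an adjusted p under 0.05 (3.09%). They were 147 higher (0.737%) and 470 lower (2.36%) genes. Of those, 10 were at least 2-fold higher and 18 at least 2-fold lower, and the median log2 change of all genes was 0.015. Taking the experiment as a block gave 2056 genes (10.3%), of which 630 were higher (3.16%) and 1426 lower (7.15%). The count leaned on single arrays: without the 24 h array of experiment 2 it was 39, and without the time 0 array of experiment 2 it was 79. Of 107 passing genes that are named here or stand in a list, 90 and 83 no longer passed in those fits, with 0 reversals. Cish, Socs2, Bcl6, Gbp4, Gbp8, Gbp9, Gbp11, Nlrp3, Hpgds, Gas7 and Pik3r3 were the named genes that passed in every alternative run. After a further quantile normalization 43.9% of the passing genes were higher, against 23.8% as deposited. Values are log2 RMA levels and log2 differences ± standard error (SE), with n = 2 arrays per group, and adjusted p-values are from limma.

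**Figure D1:**
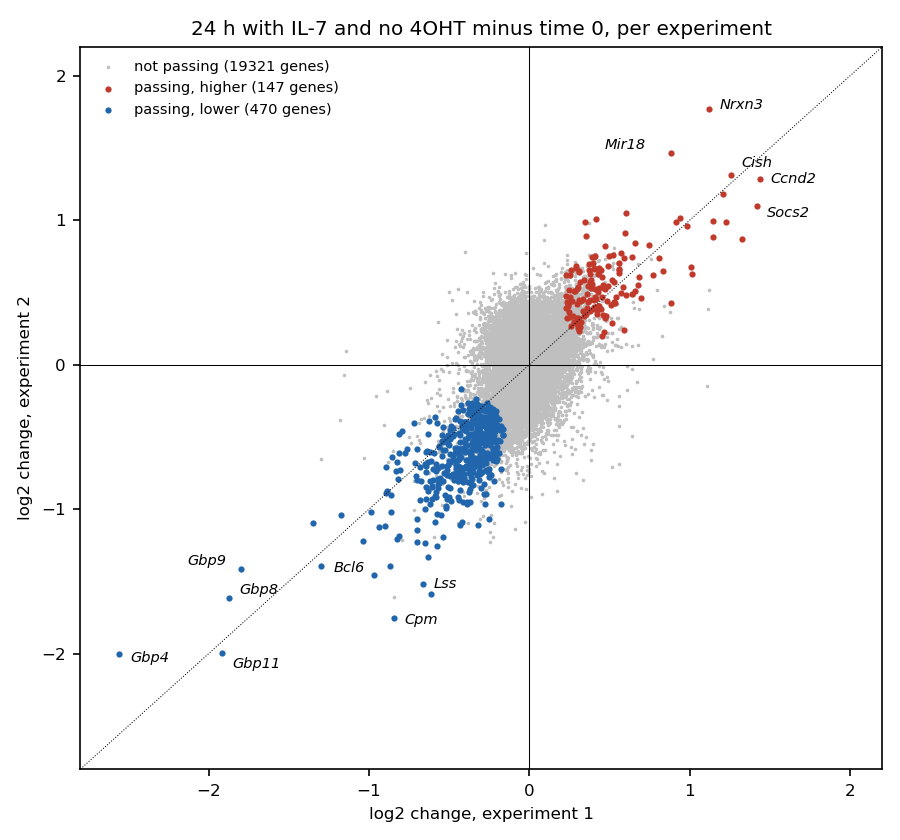
Log2 change between time 0 and 24 h with IL-7 for each of 19938 genes, with experiment 1 on the horizontal axis and experiment 2 on the vertical axis; red and blue points are the 147 higher and 470 lower genes that passed, and the dotted line marks equal changes. Gbp4, Gbp11, Nrxn3, Ccnd2, Cish and Socs2 lie far from the centre in both experiments, and 404 of the 470 blue points fell further in experiment 2, below the line.

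The genes that respond to IL-7 through STAT5 stood among the largest changes. Cish, a feedback inhibitor of cytokine receptors that STAT5 induces, was read at 8.27 and 8.27 at time 0 and at 9.52 and 9.58 after 24 h with IL-7, in experiments 1 and 2. After 24 h without IL-7 it was read at 8.22 and 8.18. The 24 h arrays with IL-7 were thus the high ones, and time 0 lay close to the 24 h arrays without IL-7. The rise of Cish was 1.28 ± 0.08, or 2.43-fold (adjusted p = 4.02e-05), while its change without IL-7 was -0.07, with a 95% interval of -0.26 to 0.11.

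Socs2, another member of the same inhibitor family, was read at 11.54 and 11.74 at time 0, at 12.96 and 12.84 after 24 h with IL-7 and at 11.33 and 11.40 after 24 h without it. It rose 2.39-fold (1.26 ± 0.12, adjusted p = 0.000501). Ccnd2, which encodes cyclin D2 and links growth factor signals to entry into the cell cycle, was read at 10.77 and 11.06 at time 0, at 12.21 and 12.34 after 24 h with IL-7 and at 10.29 and 10.68 after 24 h without it. Ccnd2 rose 2.57-fold (1.36 ± 0.19, adjusted p = 0.00463). Among the time 0 and 24 h arrays given here, its brightest 2 were again those with IL-7 at 24 h. Without the 24 h array of experiment 2 its adjusted p was 0.0685.

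Bcl6, a transcriptional repressor that STAT5 holds down in B cell precursors, moved the other way. Its levels were 10.16 and 10.05 at time 0, 8.86 and 8.66 after 24 h with IL-7 and 10.40 and 10.41 after 24 h without IL-7. Bcl6 fell by 1.35 ± 0.09 on the log2 scale, or 2.54-fold (adjusted p = 4.02e-05), by -1.30 in experiment 1 and -1.39 in experiment 2. Without IL-7 its change since time 0 was 0.30, with a 95% interval of 0.11 to 0.49.

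Among 16 measured IL-7 and STAT5 targets there were 4 rises and 1 fall, and 5 rises and 1 fall with the block. Without the 24 h array of experiment 2 there were 2 rises. The further rise was Osm, an IL-6 family cytokine, at 0.29 ± 0.07. The median over these targets was 0.07 against 0.015 for all genes, since several members stayed near 0. Among these were Socs1 (0.17), Socs3 (0.14), Mycn (0.08), Pim1 (-0.03) and Pim2 (-0.13), none of which passed. Myc itself was read at 12.55 and 12.49 at time 0 and at 12.88 and 12.86 after 24 h, a difference of 0.35 ± 0.11 that passed with the block (adjusted p = 0.0364) and not without it (adjusted p = 0.103).

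The sequences around the starts of Cish and Bcl6 are shown because they hold the letters TTCNNNGAA, the core that STAT dimers bind. They are from RefSeq's GRCm38.p6 and run 5′ to 3′ on the strand of the gene, with the core in capitals.
Cish, chr9:107296599-107296688 (+): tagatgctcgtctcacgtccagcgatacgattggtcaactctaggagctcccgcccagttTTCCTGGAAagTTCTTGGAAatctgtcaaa
Bcl6, chr16:23981284-23981463 (-): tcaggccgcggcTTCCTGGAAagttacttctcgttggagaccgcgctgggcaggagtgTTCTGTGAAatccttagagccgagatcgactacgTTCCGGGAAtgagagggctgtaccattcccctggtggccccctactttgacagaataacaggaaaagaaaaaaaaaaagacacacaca
The core, with any 3 bases in its middle, is searched alike on both strands. Cish has it at 1 and 12 bases after its start, and this start of Bcl6 has it 168, 122 and 88 bases before. In windows of 300 bases, from 250 before to 50 after a start, 3 of the 11 targets with a window in the table held the core, Cish, Bcl6 and Socs3. Of all windows 8.3% held it, and of all genes 9.6%. A match describes the letters and not a bound site.

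The 5 genes of the receptor and its signalling chain that are described next did not follow these targets. Il7r, the IL-7 receptor chain, stood at 12.79 and 13.02 at time 0 and at 12.90 and 12.84 after 24 h with IL-7, a difference of -0.04 with a 95% interval of -0.23 to 0.15. Jak1 differed by -0.11 ± 0.08 and did not pass. Stat5a was read at 11.20 and 10.99 at time 0 and at 10.65 and 10.56 after 24 h, and fell by 0.49 ± 0.09 (adjusted p = 0.0129). Stat3 fell by 0.49 ± 0.08 (adjusted p = 0.00846), and Stat5b, at -0.29 ± 0.09, passed with the block only (adjusted p = 0.0148). Of the 10 measured genes of the receptor, JAK and STAT list these 2 falls were the ones that passed, and 8 of the 10 were lower in both experiments.

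**Figure D2:**
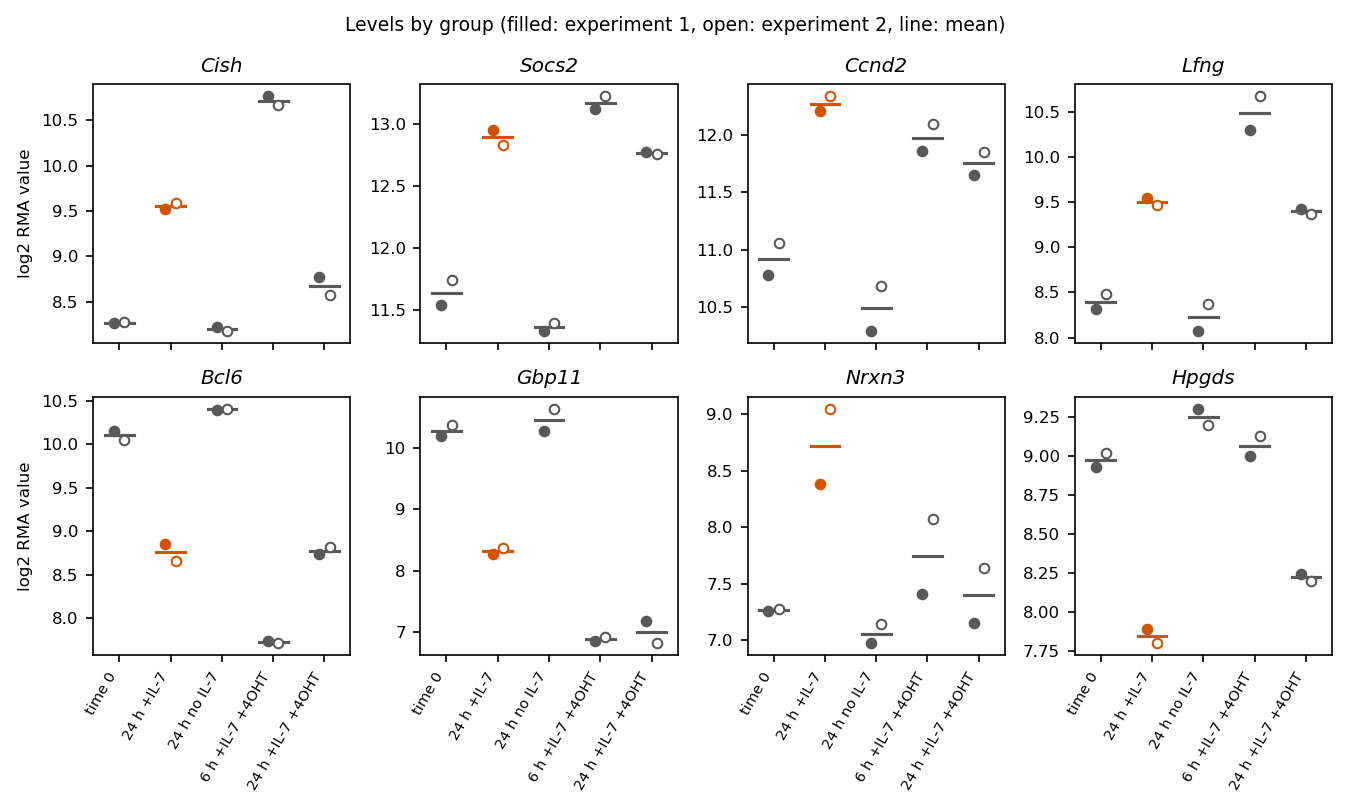
Log2 RMA levels of 8 genes in 5 of the groups, with a filled point for experiment 1, an open point for experiment 2 and a line at their mean; orange marks 24 h with IL-7 and no 4OHT. For Cish, Socs2, Ccnd2 and Lfng the points at time 0 and at 24 h without IL-7 lie below the orange points, and for Bcl6, Gbp11 and Hpgds they lie above them.

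The other large rises were in genes of varied roles. Nrxn3, a neurexin known as an adhesion molecule of synapses, had the largest rise of the genes named by rule. It was read at 7.26 and 7.28 at time 0, near the median of 7.33 over all values, and at 8.38 and 9.05 after 24 h. Nrxn3 rose by 1.44 ± 0.27 (adjusted p = 0.0153), by 1.12 in experiment 1 and 1.77 in experiment 2. It was read at 6.97 and 7.14 after 24 h without IL-7 and at 7.16 and 7.64 after 24 h with IL-7 and 4OHT, so the 2 arrays with IL-7 alone were its highest at 24 h.

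Lfng, a glycosyltransferase that modifies Notch receptors, was read at 8.32 and 8.48 at time 0 and at 9.55 and 9.47 after 24 h (1.11 ± 0.16, adjusted p = 0.00492). Of the other 24 Notch pathway genes Maml2, a coactivator, fell by 0.53 ± 0.12, and no further one passed without the block. Epb41l4b, a FERM domain protein, was read at 8.85 and 9.18 at time 0 and at 10.00 and 10.18 after 24 h (1.07 ± 0.14). Both Lfng and Epb41l4b stood still higher at 6 h with IL-7 and 4OHT, where their levels were 10.30 and 10.67, and 10.94 and 10.70.

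Ifitm1, an interferon-induced membrane protein, rose by 1.01 ± 0.18 from levels of 7.51 and 7.77. The lysine methyltransferase genes Smyd2 and Smyd5 rose by 0.97 ± 0.17 and 0.75 ± 0.14. Dctpp1, a pyrophosphatase that clears dCTP, rose by 0.83 ± 0.18. The remaining named rises were Gbp7 (0.98), the WD repeat gene Gnb1l (0.95), the membrane protein gene Gpm6b (0.84), Mlf1 (0.79) and Nkg7 (0.76). Nkg7 is known from the granules of cytotoxic lymphocytes, and its levels of 7.29 and 6.61 at time 0 and 7.89 and 7.52 after 24 h were among the lower of these genes. All 15 were higher in both experiments, as selection by the test and by rule requires.

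**Figure D3:**
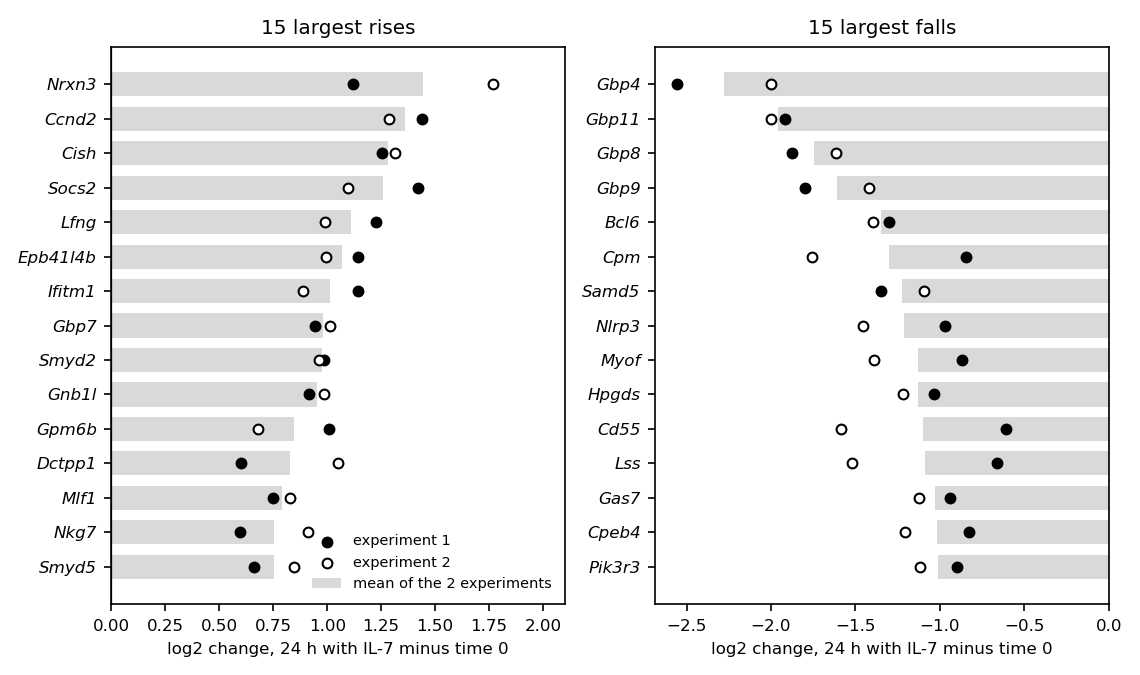
Log2 change from time 0 to 24 h with IL-7 of the 15 largest rises and the 15 largest falls chosen by rule, with grey bars at the mean and a filled or open point for experiment 1 or 2. The 2 experiments lie close together for Cish, Smyd2, Gbp11 and Bcl6, and far apart for Nrxn3, Cpm, Cd55 and Lss.

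Of 6 measured genes of the miR-17 to miR-92 cluster 4 rose. These microRNAs are cut from 1 long transcript and are known to promote survival of B cell precursors. The host transcript Mir17hg was read at 7.81 and 7.88 at time 0, at 8.62 and 8.62 after 24 h with IL-7 and at 7.73 and 7.76 after 24 h without it. It rose by 0.77 ± 0.12 (adjusted p = 0.00592). This cluster was picked out after its values were seen.

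With the experiment as a block all 6 measured genes of the cluster passed. Mir18 rose by 1.17 ± 0.20, Mir19a by 1.33 in experiment 1 and 0.87 in experiment 2, and Mir19b-1 by 1.20 ± 0.18. Mir17 (0.68 ± 0.17, adjusted p = 0.0505) and Mir20a (0.63 ± 0.18, adjusted p = 0.091) passed with the block only. Several of these levels were dim against the median of 7.33 over all values. At time 0 Mir19a (6.67 and 6.45), Mir19b-1 (6.43 and 6.06), Mir17 (6.35 and 6.17) and Mir20a (5.35 and 5.11) lay under it. Mir17 and Mir20a were still under it after 24 h with IL-7. The probe sets lie on 1 transcript and are no independent support for each other, and an array of this kind reads the precursor and host RNA and not the mature microRNA. Of 300 probe set genes named for microRNAs or their hosts 7 rose and 0 fell at the adjusted threshold, and beside the 4 of this cluster these were Mir15b (0.66), Mir25 (0.48) and Mir301b (0.38).

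The mature microRNAs of the measured hairpins are shown to give their shared seeds, bases 2 to 8, in capitals. The 6 hairpins of the cluster lie at chr14:115043671-115044506 on the plus strand of GRCm38.p6, and the sequences are RefSeq's.
mmu-miR-17-5p: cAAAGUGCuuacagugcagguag
mmu-miR-20a-5p: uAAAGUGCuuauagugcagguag
mmu-miR-18a-5p: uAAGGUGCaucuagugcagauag
mmu-miR-19a-3p: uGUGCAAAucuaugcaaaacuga
mmu-miR-19b-3p: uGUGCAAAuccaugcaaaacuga
miR-17 and miR-20a share 1 seed, miR-19a and miR-19b share another, and miR-18a has its own.

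Some genes of ribosome production and nucleotide synthesis rose after 24 h, where 0.737% of all genes did (3.16% with the block). Of 39 genes of ribosome biogenesis and RNA polymerase I 12 rose and 0 fell, 26 rose with the block, and 38 were higher in both experiments, where 29.5% of all genes were. Their median change was 0.33 against 0.015 for all genes. None of the 39 passed without the 24 h array of experiment 2, without the time 0 array of experiment 2 or on the 4 compared arrays alone without the block, and 17 passed on those 4 arrays with it. Polr1b, a subunit of RNA polymerase I, rose by 0.58 ± 0.10 from levels of 10.64 and 10.33 to 11.04 and 11.08. Rrp9 (0.55 ± 0.13) and Nop58 (0.54 ± 0.10), which work in the processing of ribosomal RNA, and Fbl (0.53 ± 0.11), its methyltransferase, rose as well. After 24 h without IL-7 the median change of the list since time 0 was -0.29. The E-box CACGTG, which MYC binds and which reads the same on both strands, stood in the windows of 9 of 35 of these genes. It stood in 3 of 14 cholesterol genes, 2 of 11 IL-7 targets and 3 of 25 nucleotide synthesis genes, against 8.1% of all genes.

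Of 27 nucleotide synthesis genes 7 rose and 1 fell, and 14 rose and 2 fell with the block. Shmt1, which supplies folate-bound carbon units, rose by 0.69 ± 0.14, and Gart, an enzyme of purine synthesis, by 0.65 ± 0.11. Dctd, which makes dUMP, rose by 0.63 ± 0.12. Cad (0.49 ± 0.12), the first enzyme of pyrimidine synthesis, and the purine enzymes Ppat (0.55 ± 0.13), Atic (0.55) and Pfas (0.46) made up the rest. Impdh1, of guanine nucleotide synthesis, fell by 0.45 ± 0.08. The median of the list was 0.28. Its rises numbered 0 without either array of the 24 h group or the time 0 array of experiment 2.

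Polyamine synthesis, of 7 measured genes, had 1 rise. Srm, spermidine synthase, was read at 11.95 and 11.37 at time 0 and at 12.30 and 12.36 after 24 h (0.67 ± 0.15, adjusted p = 0.0389). Odc1, the entry enzyme of the pathway, differed by 0.67 ± 0.21, which passed with the block only. Among 12 MYC and MAX network genes the MYC antagonists Mxd4 and Mxd1 fell, by 0.56 ± 0.09 and 0.39 ± 0.08. Of all genes 0.737% rose and 2.36% fell, and 3.16% rose with the block.

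In glycolysis Hk2, the hexokinase, rose by 0.52 ± 0.11 and Aldoc, an aldolase, fell by 0.84 ± 0.11, of 25 genes. With the block 7 rose, among them Pfkl, Tpi1, Pgam1, Ldha and Pkm, and 2 fell. Of all genes 0.737% rose and 2.36% fell, and with the block 3.16% rose and 7.15% fell.

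Genes of replication and mitosis had medians above 0, but none of them passed without the block. Of 23 genes of the replicative helicase and origin licensing 0 passed, with 14 at an unadjusted p under 0.05, and 12 rose with the block. The largest value was Orc1, of the origin recognition complex, at 0.74 ± 0.22 (adjusted p = 0.0983). Of 27 DNA polymerase and replication fork genes 0 passed, with 16 at an unadjusted p under 0.05, and 12 rose with the block, such as Pold2 (0.52) and Fen1 (0.50). Of these 27, 26 were higher in both experiments. The medians were 0.36 and 0.33. Of all 19938 genes 3349 lay at an unadjusted p under 0.05 in either direction, which holds beside every such count. With the block 3.16% of all genes rose.

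The 31 genes of G2/M and mitosis had a median of 0.19. None of them passed without the block, 0 lay at an unadjusted p under 0.05, and 3 passed with it, Ttk, Ncapg and Cdk1. Rb1, the retinoblastoma protein that restrains E2F factors, was read at 10.84 and 10.91 at time 0 and at 10.49 and 10.33 after 24 h, a fall of 0.47 ± 0.08 (adjusted p = 0.0086).

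Chaperone and translation genes did not pass without the block. The median change was 0.22 for the CCT chaperonin, 0.19 for heat shock proteins, 0.17 for aminoacyl-tRNA synthetases and 0.07 for mitochondrial ribosomal proteins, against 0.015 for all genes. In both experiments 8 of 8 CCT genes, 15 of 19 heat shock genes and 13 of 18 synthetases were higher. With limma at the adjusted threshold 0 genes passed of 19 heat shock genes (7 at an unadjusted p under 0.05), 8 CCT chaperonin genes (3), 18 aminoacyl-tRNA synthetases (6), 58 mitochondrial ribosomal proteins (3) and 23 cytoplasmic ribosomal proteins (0). With the block 6 heat shock genes rose, led by Hspd1 (0.47), and 4 CCT genes did. None passed without the block either of 29 genes of the ATF4 response (5 higher and 3 lower at an unadjusted p under 0.05), 20 of endoplasmic reticulum stress (8 and 3), 22 NRF2 targets (0 and 3), 35 of the respiratory chain (0 and 0) and 6 inhibitors of cyclin-dependent kinases (1 and 1). The cytoplasmic ribosomal proteins had a median of 0.00 and ranged from -0.13 to 0.11. At an unadjusted p under 0.05 lay 3349 of all 19938 genes, and 3.16% of all genes rose with the block.

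**Figure D4:**
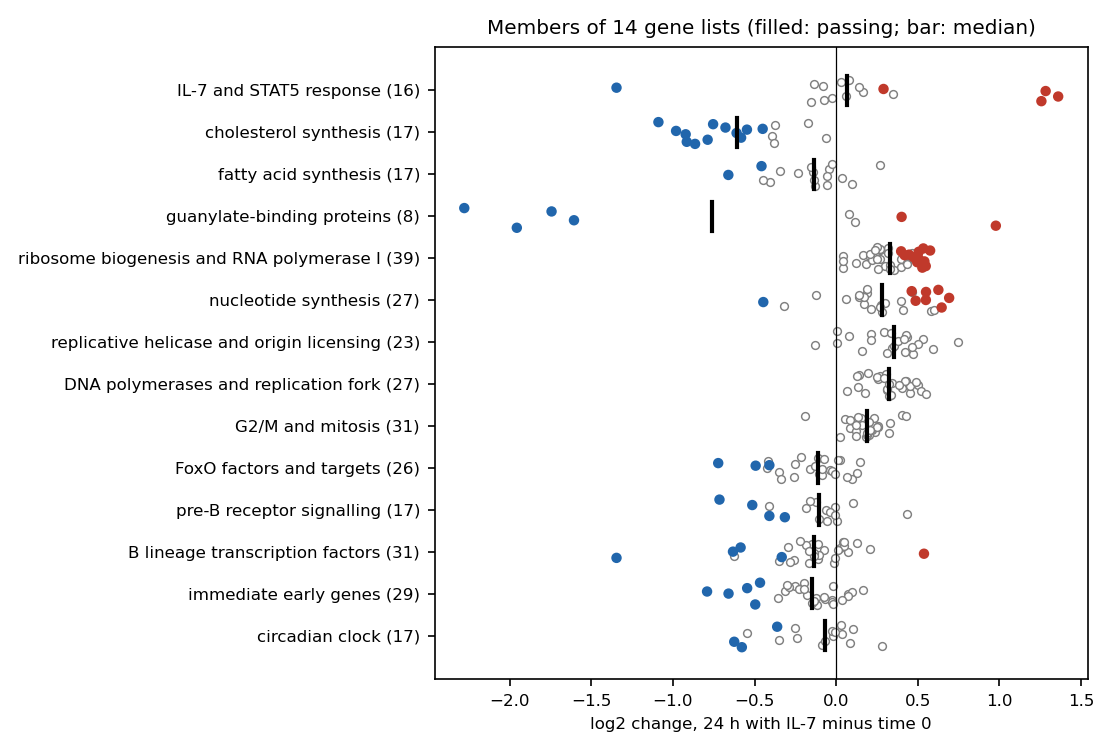
Log2 change from time 0 to 24 h with IL-7 of each measured member of 14 lists, with the number of members in brackets, filled points for members that passed (red higher, blue lower), open points for the others and a black bar at the median. The ribosome, nucleotide and replication lists lie mostly to the right of 0, cholesterol synthesis lies to its left, and the guanylate-binding proteins fall into a low and a high group.

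The largest falls of all were in guanylate-binding proteins, GTPases that interferon induces and that act against pathogens inside cells. Gbp4 was read at 10.25 and 9.54 at time 0, at 7.69 and 7.54 after 24 h with IL-7 and at 9.96 and 9.82 after 24 h without it. It fell 4.85-fold (-2.28 ± 0.21, adjusted p = 0.000498). Gbp11 was read at 10.19 and 10.37 at time 0, at 8.28 and 8.37 after 24 h with IL-7 and at 10.28 and 10.64 without it, and fell 3.88-fold (-1.96 ± 0.15, adjusted p = 0.000133). In both genes the arrays at time 0 and at 24 h without IL-7 were high, and those at 24 h with IL-7 were low.

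Gbp8 fell 3.35-fold (-1.74 ± 0.17) and Gbp9 3.05-fold (-1.61 ± 0.20). Without IL-7 the changes of Gbp4, Gbp11, Gbp8 and Gbp9 since time 0 were -0.00, 0.18, 0.20 and 0.12, and every 95% interval of these 4 held 0. All 4 are neighbours on chromosome 5 in the RefSeq gene table, which lists Gbp11 as a transcribed pseudogene. They are close copies of each other, so that a probe of one may read another, which was not tested.

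The 4 measured family members on chromosome 3 differed from these. Gbp7 was read at 7.0 and 7.01 at time 0 and at 7.94 and 8.03 after 24 h, and rose by 0.98 ± 0.14 (adjusted p = 0.00492). Gbp5 rose by 0.40 ± 0.09 from levels of 5.58 and 5.62, which are under the median of all values. Gbp3 (0.11 ± 0.10) and Gbp2b (0.08) did not pass. So 4 of the 8 fell, 2 rose and 2 did not pass.

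Other interferon genes showed no fall of this size. Of 29 in that list 0 passed at the adjusted threshold. At an unadjusted p under 0.05 lay 3 of them, and 3349 of all 19938 genes. The list leaned lower, with a median of -0.105. In both experiments 19 of the 29 were lower and 1 was higher, where 28.5% and 29.5% of all genes were. With the block 3 fell, where 7.15% of all genes did. The 3 were Ddx58, a sensor of viral RNA, at -0.66, Stat2 at -0.40 and Nlrc5 at -0.38. Nlrp3, the inflammasome sensor, was read at 8.57 and 8.83 at time 0, at 7.59 and 7.38 after 24 h with IL-7 and at 8.73 and 8.91 without it. It fell by 1.21 ± 0.11 (adjusted p = 0.000498), and was the 1 gene of 16 in the NF-kappaB list to pass. With the block 5 of that list fell, among them Rel and Nfkbia. Of all genes 2.36% fell, and 7.15% did with the block.

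Cholesterol synthesis fell along most of its steps. Of its 17 measured genes 12 fell and 0 rose, and 15 fell with the block, where 2.36% and 7.15% of all genes fell. In both experiments 17 of 17 were lower, where 28.5% of all genes were. Lss, which closes the sterol rings, was read at 10.21 and 10.71 at time 0 and at 9.55 and 9.19 after 24 h (-1.09 ± 0.16, adjusted p = 0.00492). Hmgcs1, which makes the substrate of the rate-limiting enzyme, was read at 11.66 and 12.01 at time 0 and at 11.09 and 10.76 after 24 h (-0.92 ± 0.14, adjusted p = 0.0056). Nsdhl, of the late steps, fell by 0.92 ± 0.10 (adjusted p = 0.00127). The time 0 arrays were the high ones for all 3 genes, which were chosen among those that passed.

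The median of the list was -0.61, and it was -0.39 in experiment 1 and -0.89 in experiment 2. The time 0 array of experiment 2 was the brighter of the 2 at time 0, with a median level of the list at 11.00 against 10.57. Without the 24 h array of experiment 2 the falls numbered 2, and without the time 0 array of experiment 2 they numbered 3. Ebp (-0.06) and Tm7sf2 (-0.17) were the members nearest 0, and did not pass with the block either. Of the genes around the pathway, Insig1, which holds the sterol sensor in the endoplasmic reticulum, fell by 0.69 ± 0.11 and Srebf2, the transcription factor of the pathway, by 0.50 ± 0.11. Mylip, which degrades the LDL receptor, fell by 0.50 ± 0.11 and Nceh1, a cholesterol ester hydrolase, by 0.36 ± 0.08. In fatty acid synthesis 2 of 17 fell, Acss2 (-0.66 ± 0.16) and Acsl4 (-0.46 ± 0.11), and 5 fell and 1 rose with the block. Of all genes 2.36% fell, and with the block 7.15% fell and 3.16% rose.

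Unlike the IL-7 targets, cholesterol genes were lower than at time 0 with IL-7 and without it. The median change was -1.19 without IL-7 at 24 h, -0.90 at 6 h with IL-7 and 4OHT and -0.68 at 24 h with IL-7 and 4OHT. These comparisons share the time 0 arrays. In the comparison of 24 h with and without IL-7, 12 of the 17 passed as higher with IL-7 and 1, Tm7sf2, as lower. Fdft1 (0.40), Lss (0.46), Nsdhl (0.26) and Sc5d (0.27) did not pass there. The median change was thus below 0 in each of the 4 later groups given here.

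**Figure D5:**
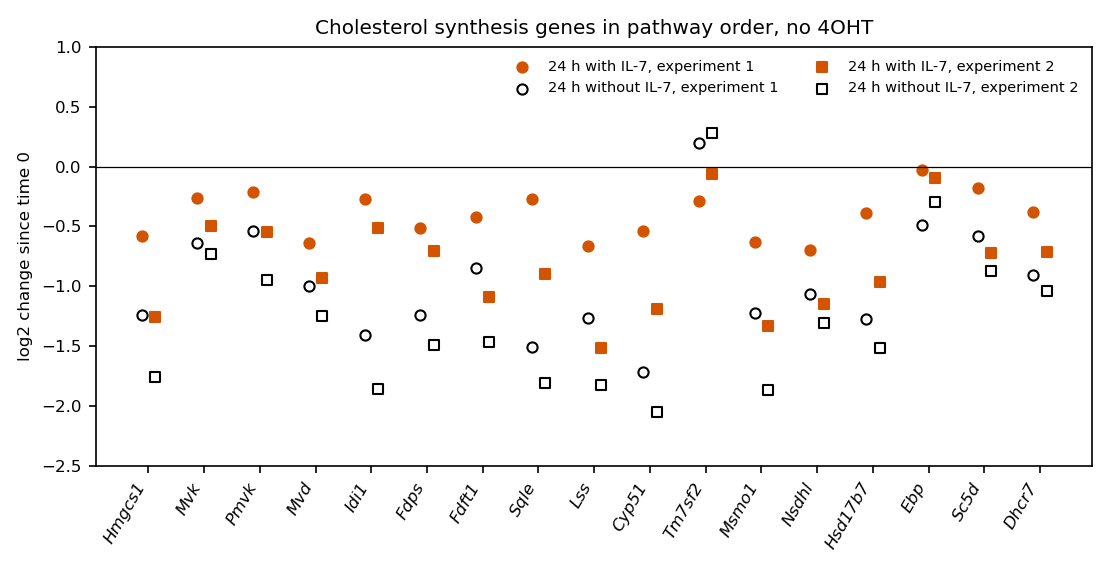
Log2 change since time 0 of 17 cholesterol synthesis genes, from the early enzymes at the left to the late ones at the right; orange points are 24 h with IL-7, open points 24 h without IL-7, circles experiment 1 and squares experiment 2. The orange points lie below 0 in both experiments for all 17 genes, lower in experiment 2 for 16 of them, and the open points lie lower still for most genes.

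Upstream windows of Hmgcs1 and Lss are shown as examples, because sterol genes are controlled through a sterol regulatory element, often close to a CCAAT box. Capitals mark ATTGG, the CCAAT box read on the other strand, in both, and TCACNCCAC, a form of the sterol element, in Hmgcs1. They are RefSeq's, GRCm38.p6.
Hmgcs1, chr13:119690101-119690350 (+): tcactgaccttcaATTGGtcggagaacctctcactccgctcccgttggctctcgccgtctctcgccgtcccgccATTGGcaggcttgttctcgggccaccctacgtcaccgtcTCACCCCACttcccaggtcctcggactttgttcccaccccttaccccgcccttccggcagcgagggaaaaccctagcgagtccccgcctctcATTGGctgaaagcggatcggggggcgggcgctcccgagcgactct
Lss, chr10:76531455-76531604 (+): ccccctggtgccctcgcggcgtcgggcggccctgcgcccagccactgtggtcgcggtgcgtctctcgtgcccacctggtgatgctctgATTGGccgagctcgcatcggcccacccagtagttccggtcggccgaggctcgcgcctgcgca
Searched on both strands, ATTGG or CCAAT stood in 14 of the 14 cholesterol genes with a window, against 41.1% of all genes. TCACNCCAC stood in 1 of the 14, Hmgcs1, 137 bases before its start, against 1.4% of all genes.

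Genes of the pre-B cell receptor and of B cell maturation were lower at a part of their members. The receptor chains themselves did not pass: Igll1, of the surrogate light chain, stood at 13.87 and 13.87 at time 0 and at 13.77 and 13.78 after 24 h, and Vpreb1 differed by -0.17 ± 0.08. Of 7 chains 0 passed with or without the block, with 1 at an unadjusted p under 0.05. Of 17 genes that signal downstream 4 fell, against 2.36% of all genes. The kinase Fyn fell by 0.71 ± 0.10, from 9.39 and 9.63 to 8.91 and 8.69, and the adaptors Dok3 and Blnk by 0.51 ± 0.07 and 0.41 ± 0.09. Inpp5d, the phosphatase that opposes PI3 kinase, fell by 0.31 ± 0.07.

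Of 31 B lineage transcription factors 4 fell and 1 rose, and 7 fell with the block, against 2.36%, 0.737% and 7.15% of all genes. Besides Bcl6 these were Klf3 (-0.63 ± 0.09), a repressor, Spib (-0.59 ± 0.10), an Ets factor of maturing B cells, and Irf8 (-0.33 ± 0.07). Ikzf4, of the Ikaros family, rose by 0.54 ± 0.12. Spib was read at 10.14 and 10.40 at time 0, at 9.68 and 9.69 with IL-7 and at 10.47 and 10.72 without it, so the lowest of these 6 arrays were those with IL-7. The factors that define the lineage, Pax5 (-0.22 ± 0.11) and Ebf1 (-0.15 ± 0.09), did not pass. Ikzf1, the gene of Ikaros, was read at 13.04 and 13.19 at time 0 and at 13.02 and 13.06 after 24 h (-0.08 ± 0.07). Whether its probes read the endogenous transcript, the fusion or both was not tested, so this level does not check the labels.

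Ptprc, the phosphatase CD45, fell (-0.46 ± 0.10), as 1 of 16 markers of the pro-B and large pre-B stages. Of all genes 2.36% fell and 0.737% rose, so a single call says little about a list of this size. Among 20 later B cell markers Cxcr5, a chemokine receptor, rose and Cd69 and Cd55 fell. Cxcr5 rose by 0.82 ± 0.17 from levels of 5.48 and 5.63 to 6.49 and 6.26, still under the median of all values. Cd69, an early activation marker, fell by 0.67 ± 0.13. Cd55, which protects cells from complement, fell by 0.61 in experiment 1 and 1.59 in experiment 2 and its call was lost with the quantile normalization. Of 17 chemokine and S1P receptors S1pr3 (0.35) rose beside Cxcr5, and of 32 integrins and adhesion genes Itga1 (-0.67), an integrin chain that binds collagen, fell and Nrxn3 rose. H2-Oa, which tunes peptide loading, was the 1 of 9 MHC class II genes to pass (-0.67 ± 0.09). None of 12 V(D)J recombination genes passed, with 1 at an unadjusted p under 0.05 and 0 with the block, while Rag1 stood at 5.66 and 5.82 at time 0 and at 5.81 and 5.80 after 24 h.

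FoxO factors and their targets had 3 falls and 0 rises of 26, and 7 falls with the block. Of all genes 2.36% fell, and 7.15% with the block, which holds beside each count of this paragraph. Ddit4, an inhibitor of mTOR signalling, was read at 10.82 and 10.80 at time 0 and at 10.22 and 9.96 after 24 h (-0.72 ± 0.09, adjusted p = 0.00317). Sesn3, of the sestrins, fell by 0.49 ± 0.10, Blnk, named above, is the third, and Foxo1 (-0.35 ± 0.12) passed with the block only. In the BCL2 family Bmf, which promotes cell death, fell by 0.61 ± 0.11, from 10.92 and 11.18 to 10.51 and 10.37. It was the 1 of 14 to pass, and Bcl2, carried by one of the viruses, stood at 8.29 and 8.32 and at 8.32 and 8.32. Whether the Bcl2 probes read the viral transcript was not tested. Of 17 p53 targets 1 fell, Trp53inp1 (-0.33 ± 0.08), and 5 did with the block.

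Immediate early genes, which answer to receptor signals within minutes, fell at 5 of 29 members and rose at none (9 and 0 with the block). Of all genes 2.36% fell, and 7.15% with the block. Nr4a1, an orphan nuclear receptor, was read at 11.74 and 12.03 at time 0, at 11.12 and 11.06 with IL-7 and at 12.01 and 11.92 without it (-0.79 ± 0.11, adjusted p = 0.00479). Jun fell by 0.66 ± 0.15, by 0.25 in experiment 1 and 1.07 in experiment 2. Jund (-0.55 ± 0.10), Fosl2 (-0.50 ± 0.11) and Klf6 (-0.47 ± 0.10) completed them. The list's median was -0.15, and 0 of its members fell without the 24 h or the time 0 array of experiment 2.

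Of 17 circadian clock genes 3 fell, against 2.36% of all genes. Arntl, an activator of the clock, was read at 10.09 and 10.24 at time 0 and at 9.63 and 9.55 after 24 h (-0.58 ± 0.10). Bhlhe41, a repressor in the same loop, fell by 0.62 ± 0.10 and Tef, an output factor, by 0.36 ± 0.07. The hour of sampling is not in the labels. Among 12 estrogen receptor targets Esr1, the receptor gene itself, fell by 0.56 ± 0.11, and Greb1 (-0.86 ± 0.42) passed with the block only. Whether the Esr1 probes read the receptor part of the fusion was not tested. No 4OHT had been added to either group.

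The remaining large falls were in genes of membranes, enzymes and RNA control. Hpgds, a prostaglandin D synthase of blood cells, was read at 8.93 and 9.02 at time 0 and at 7.89 and 7.80 after 24 h with IL-7 (-1.13 ± 0.10, adjusted p = 0.000498). It was read at 9.30 and 9.20 after 24 h without IL-7 and at 9.0 and 9.13 at 6 h with IL-7 and 4OHT, so the fall is seen at 24 h and not at 6 h in these arrays. Cpm, a membrane carboxypeptidase, fell by 0.85 in experiment 1 and 1.76 in experiment 2 (-1.30 ± 0.24). Samd5 fell by 1.22 ± 0.23, from 9.27 and 8.54 to 7.93 and 7.44, and Myof, which acts in membrane repair, by 1.13 ± 0.21. Gas7 (-1.03 ± 0.09), Cpeb4, which binds messenger RNA (-1.02 ± 0.13), and Pik3r3, a regulatory subunit of PI3 kinase (-1.01 ± 0.13), followed.

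Markers of other cells were read for the same arrays. Of 11 pre-B identity markers 10 lay above the median of all values in the brighter group. Markers above that median numbered 5 of 12 for T cells, 3 of 13 for NK cells, 2 of 14 for myeloid cells and 1 of 8 for erythroid cells and megakaryocytes. They numbered 6 of 10 for plasma cells and 4 of 11 for stromal cells. The plasma and stromal lists hold genes of B cells and cell lines such as Xbp1 and Vim. For scale, the filter on dim genes kept 10664 of all 19938 genes in the comparison with time 0. These counts therefore do not show by themselves whether a kind of cell was present or absent. The summed linear level of the NK list was 822 and 781 at time 0 and 968 and 886 after 24 h, and that of the T cell list 2079 and 1910, and 1720 and 1848. For myeloid markers it was 1508 and 1509, and 1437 and 1577. For plasma cell markers it was 11098 and 12835, and 12218 and 11682, and for stromal markers 7432 and 6547, and 7364 and 7044. In these lists Nkg7 rose and Zap70 (-0.46 ± 0.10) and Mzb1 (-0.36 ± 0.07) fell, and 0 of the myeloid, erythroid and stromal genes passed with or without the block (1 of them at an unadjusted p under 0.05). In bulk RNA fewer cells of a kind and less RNA per cell cannot be told apart.

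The cells at 24 h with IL-7 were also compared with cells at 24 h without it. This comparison reuses the 24 h arrays by which the named genes were chosen. There 3982 genes differed (20.0%), 1750 higher (8.78%) and 2232 lower (11.2%) with IL-7. The count was 2279 without the array lacking IL-7 of experiment 2. The split was 2237 higher and 2081 lower after a further quantile normalization, and 1462 and 1202 without the 24 h array with IL-7 of experiment 2. Of the 30 named genes Samd5 (-0.55, adjusted p = 0.122) and Lss (0.46, adjusted p = 0.0613) did not pass there. The median change of the 147 genes that rose was 0.48 with IL-7, a value set by their selection, and -0.21 without IL-7. For the 470 that fell it was -0.48 with IL-7 and 0.09 without it. These 3 groups share arrays, so the values are set side by side only.

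Cell cycle genes showed the other pattern. All 31 mitotic genes were higher with IL-7 than without it at 24 h, with a median difference of 1.76, while their median change since time 0 was 0.19 with IL-7 and -1.58 without it. The replication fork list was higher at 27 of 27 genes, with a median of 1.17, and its median change since time 0 was 0.33 with IL-7 and -0.75 without. For these lists, unlike for Cish, Bcl6 and the chromosome 5 guanylate-binding proteins, time 0 lay nearer to the cells with IL-7.

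At 6 h the groups with and without IL-7, both with 4OHT, use none of the 4 arrays described above. In that comparison 2844 genes passed (14.3%), and 1490 without the array with IL-7 of experiment 1. Of the 147 genes that rose in 24 h of culture 112 (76.2%) were also higher with IL-7 at 6 h, where 7.48% of all genes were. They are 7.5% of the 1492 higher at 6 h, against 0.737% of all genes that rose in culture. Of the 470 that fell 289 (61.5%) were lower with IL-7 at 6 h, where 6.78% of all genes were. They are 21.4% of the 1352 lower at 6 h, against 2.36% of all genes that fell in culture. The opposite direction was called for 1 of the 147 and 6 of the 470. The spread of a gene is estimated over all arrays in every comparison.

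Gbp4 and Gbp11 were no part of that overlap. At 6 h with 4OHT Gbp4 was low with IL-7 (6.91 and 7.05) and without it (6.91 and 7.12), and so was Gbp11 (6.85 and 6.91, and 7.03 and 7.33). Nrxn3 (0.10) and Hpgds (-0.11) did not differ past the threshold with IL-7 at 6 h either. Cish (2.99), Ccnd2 (2.71), Lfng (2.03) and Bcl6 (-2.48) did.

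Set against 6 h with IL-7 and 4OHT, the 24 h arrays differed at 1555 genes (7.80%), 637 higher (3.19%) and 918 lower (4.60%), and at 3098 with the block (15.5%). The count was 704 without the 24 h array of experiment 2 and 710 without the 6 h array of experiment 2. Time and 4OHT cannot be told apart in it. Cish was lower at 24 h by -1.16 (adjusted p = 1.44e-05) and Lfng by -0.98 (adjusted p = 0.00281), while Bcl6 was higher by 1.03 (adjusted p = 3.22e-05). Of the 16 IL-7 and STAT5 targets 8 were lower at 24 h than at 6 h and 2 were higher. Socs2 (-0.28) and Ccnd2 (0.30) did not pass. Of 27 replication fork genes 22 were higher at 24 h, and of 23 helicase and licensing genes 14 were, with medians of 0.60 each. Hpgds (-1.22), Cpm (-1.40) and H2-Oa (-1.03) were lower and Nlrp3 (1.30) and Gbp11 (1.44) higher at 24 h. At 24 h with IL-7 and 4OHT Nlrp3 was read at 5.88 and 6.0 and Gbp11 at 7.17 and 6.82, near their levels at 6 h with IL-7 and 4OHT (6.19 and 6.17 for Nlrp3). Hpgds was read there at 8.24 and 8.20, below its 6 h levels. Cpm stood at 11.86 and 11.26 and H2-Oa at 10.50 and 10.32, above their levels at 24 h with IL-7 alone. These levels are given side by side, with no test.

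Within groups the correlation of the pair of arrays was 0.9933 to 0.9965 over all probe sets, and array medians lay between 7.23 and 7.43. The median SE of a log2 difference was 0.091, and the number of arrays limits the precision. Across genes, which are not independent replicates, the changes of experiments 1 and 2 correlated at 0.483.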

How the data were processed

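Gene expression was measured on Affymetrix arrays from 150 ng of total RNA, per the labels' protocols. The authors deposited log2 values for 35556 probe sets, made with RMA in Affymetrix Expression Console 1.1, per the submitters' processing notes; RMA corrects background, normalizes by quantiles and summarises probes. The build and other settings are not given in the sources. The values were used as deposited. The probe annotation listed 23410 probe sets with a gene, 21789 of them with 1 symbol, 1621 with several and 12146 with none; the brightest probe set was kept for 999 genes with more than 1, which left 19938 genes. Of 976 list symbols 898 were matched.

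limma 3.58.1 in R 4.3.3 was fitted to all 14 arrays with a mean per group (7 residual and 4.83 prior degrees of freedom), two-sided, with Benjamini-Hochberg adjustment over all genes and a threshold of 0.05. The script was tested on simulated data. Each group has 1 array from either of 2 experiments with a single line, and p-values measure the spread between these arrays. Arrays were paired by the experiment number in their titles: their deviations from the group means correlated at 0.124 to 0.631 in 21 pairs of groups (median 0.392), and at 0.124 for the groups compared here. In limma's fit with the block 3731 genes differed between the experiments at an adjusted p under 0.05. The main fit does not use the pairing, and blocked values stand beside results they change. The alternatives were the block, leaving out arrays, the compared arrays only, a filter on dim genes, renewed quantile normalization, an intensity trend and the median over probe sets.

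Named genes are the 15 largest rises and the 15 largest falls that passed with 1 sign in each experiment and a brighter group over 7.33, the median of all values; predicted genes, variable segments of immunoglobulins, olfactory receptors and small RNAs were left out; members of the 50 lists are named as well. The members and lists were chosen with earlier results of these data known.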

Additional observations from a re-analysis of the deposited data

Results flagged for a closer look

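For 2 of the named genes the changes since time 0 went opposite ways with and without IL-7, each past the threshold. The difference, which is the first change minus the second, passed in limma's fit as well. Both genes were picked by these same tests, so their adjusted p-values are no separate support. Mlf1 rose by 0.79 ± 0.11 with IL-7 and fell by 0.54 ± 0.11 without it, a difference of 1.32 ± 0.11 (adjusted p = 1.62e-05) with the same sign in 2 of 2 experiments. Gas7 fell by 1.03 ± 0.09 with IL-7 and rose by 0.62 ± 0.09 without it, a difference of -1.65 ± 0.09 (adjusted p = 2.635e-06), also in 2 of 2 experiments.

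Probe sets that the annotation lists with no gene entered no gene comparison. Tested together with all 35556 probe sets, 65 of these 12146 passed between time 0 and 24 h with IL-7 (0.535%), 8 higher and 57 lower, of 315 that passed in all. They stay unnamed here.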

How the results depend on the processing

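The count of genes that differed between time 0 and 24 h with IL-7 in limma's test, 617, was 2056 with the experiment number as a block, 128 on the compared arrays only, 972 on those arrays with the block (chosen after seeing the data), and 39 to 745 when 1 array was left out. The difference from 6 h with IL-7 and 4OHT, at 1555 genes, gave 3098 with the block, 871 on the compared arrays only and 704 to 1053 without 1 array. IL-7 at 24 h gave 2279 to 3252 genes without 1 array, lowest without the array lacking IL-7 of experiment 2, and IL-7 at 6 h 1490 to 2336. After renewed quantile normalization the split of the main comparison was 250 higher and 319 lower, and that of the comparison with 6 h 979 and 692. Of the 30 named genes none reversed, and the block changed no call among them; without the 24 h array of experiment 2 the calls of 17 were lost, without the time 0 array of experiment 2 those of 13, and on the compared arrays only those of Cd55, Nkg7 and Samd5. The medians of the CDK inhibitor, BCL2 family, cytoplasmic ribosomal protein, later B cell, V(D)J, Notch and NK cell lists changed sign with the scaling. The number of arrays limits all calls, and limits of detection were not read from the deposited values.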

Other observations

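Genes of the lysosome, a compartment that degrades proteins and lipids, were lower after 24 h with IL-7 at a part of their members. These lists were chosen after their values were seen, so their counts are descriptions. Of 23 measured subunits of the vacuolar ATPase, the pump that acidifies lysosomes, 5 fell and 0 rose (7 and 0 with the block), where 2.36% of all genes fell. Atp6v0a1 was read at 10.77 and 11.10 at time 0, at 10.12 and 9.87 after 24 h with IL-7 and at 10.70 and 10.75 after 24 h without it, and fell by 0.94 ± 0.12 (adjusted p = 0.00365). Atp6v0d1 (-0.56), Atp6v1d (-0.51), Atp6v1e1 (-0.40) and Atp6v0b (-0.35) were the others. Of 35 lysosomal enzyme genes 7 fell and 0 rose, with a median of -0.16. With the block 10 of the enzymes fell and 1 rose, Ppt1 (0.37), and in both experiments 23 were lower and 5 higher. Of 22 genes of the lysosomal membrane and its control 3 fell, and 9 with the block, with a median of -0.25. Of all genes 7.15% fell and 3.16% rose with the block. Without IL-7 the medians of the 3 lists since time 0 were 0.00 for the pump, -0.01 for the enzymes and 0.08 for the membrane genes.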
